A study of Arabidopsis thaliana with 6 samples.

Results

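The phi class is one of the main classes of plant glutathione transferases, enzymes that join the tripeptide glutathione to reactive or foreign molecules or bind such molecules without changing them. The 10 genes described here were taken by locus: GSTF2 (AT4G02520), GSTF3 (AT2G02930), GSTF4 (AT1G02950), GSTF5 (AT1G02940), GSTF6 (AT1G02930), GSTF7 (AT1G02920), GSTF8 (AT2G47730), GSTF9 (AT2G30860), GSTF11 (AT3G03190) and GSTF12 (AT5G17220), which is better known as TT19 for the transparent testa (pale seed coat) of its mutants. They were represented by 13 of the 37118 features of the arrays, and by 10 of the 32627 loci. GSTF4 had 3 features, GSTF9 had 2 and the other 8 genes had 1 each. A feature is a set of probes for a transcript, with 4 probes in 12 of the 13 member features and 3 for TT19. The family was chosen because GSTF5 stood high in the lines that carry the transgene, so the group differences below are a description of these lines and not a test of the choice.

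RNA was measured in whole 3-week-old Arabidopsis thaliana plants of the Columbia ecotype on arrays of 1 colour. The first group held 3 lines with 35S::VvMYBPAR, a grapevine MYB transcription factor gene behind the 35S promoter, which is active in most plant tissues (lines PAR18-2, PAR9-2 and PAR36-4, here MYBPAR replicates 1, 2 and 3). The second group held 3 lines with the empty vector (lines Cont1-1, Cont2-3 and Cont5-1, here empty vector replicates 1, 2 and 3). All plants of both groups had been selected on agar with 30 mg/l kanamycin and had grown at 22 °C with 16 h of light a day, and each line was measured once, on 1 array.

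Phi class enzymes differ in what they are known for. TT19 carries anthocyanins and the precursors of proanthocyanidins (condensed tannins) on their way to the vacuole, and seeds of its mutants lack the brown tannin colour. GSTF6 takes part in the synthesis of camalexin, the main antimicrobial indole compound of Arabidopsis. GSTF2, GSTF6, GSTF7 and GSTF8 are familiar as genes that respond to pathogens, salicylate or toxic compounds, and GSTF9 and GSTF11 have been tied to glucosinolate synthesis. GSTF4 to GSTF7 are direct neighbours in the genome.

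Across these genes GSTF5 stood far above its empty vector level in all 3 MYBPAR lines, GSTF6 stood above it by a smaller step, and the other members, TT19 among them, differed little between the groups. In the limma fit over all features, with Benjamini-Hochberg adjustment and a threshold of 0.05, 0 of the 13 member features passed, beside 0.00539% of all 37118 features called higher (2 features) and 0% called lower. Without adjustment, at p under 0.05 in the limma fit, 2 member features were counted, GSTF5 and GSTF6, beside 4.32% of all features. GSTF5 was in this count by the choice of the family, which leaves GSTF6 as the only other member feature. The median log2 difference of the 13 features was 0.08, beside 0.02 over all features. Of the 13, 11 lay above 0 and 2 below 0, beside 19944 above and 17174 below of all 37118 features. Most of the 11 were near 0.

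**Figure D1:**
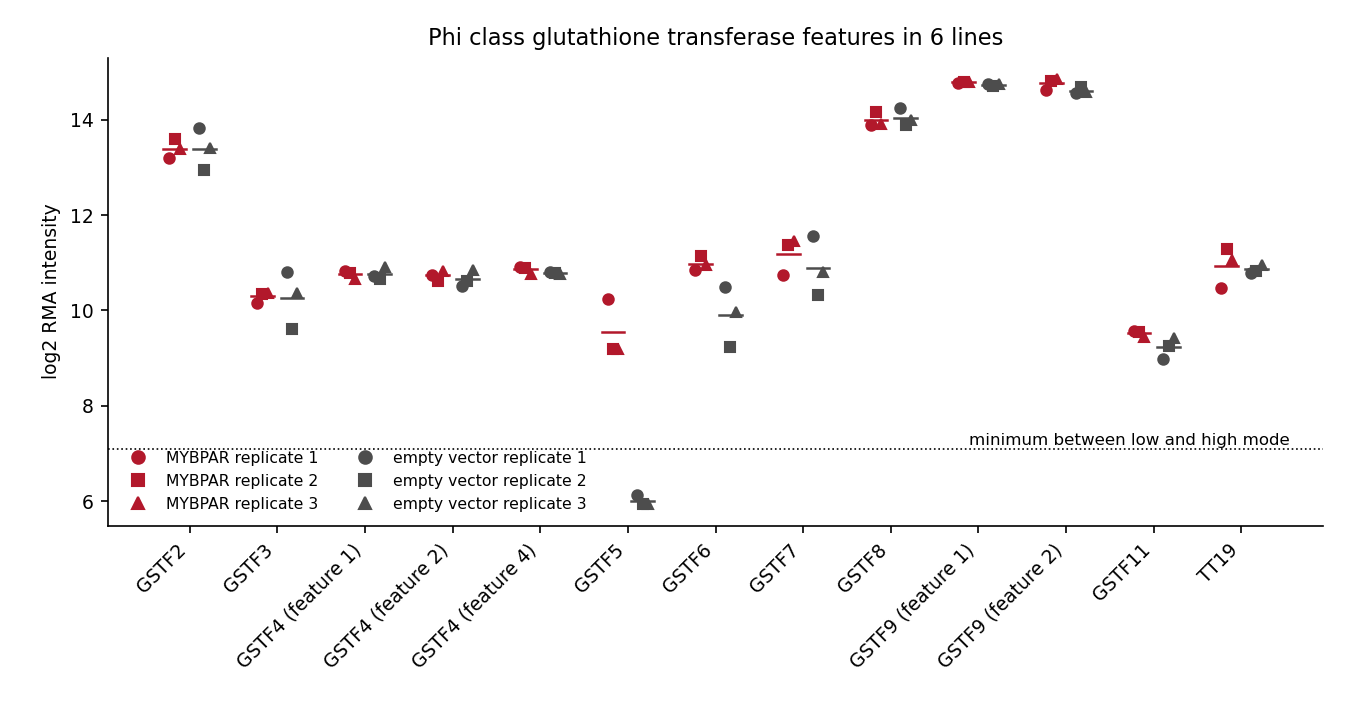
Log2 RMA intensity (y axis) of the 13 phi class features (x axis) in the MYBPAR lines (red, left) and the empty vector lines (grey, right), with 1 symbol per line and a bar at each group mean. The GSTF5 values of the 3 empty vector lines are the only points below the dotted minimum between the low and high modes of the array, and levels of different features cannot be set against each other.

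GSTF5 had log2 values of 10.24, 9.20 and 9.19 in MYBPAR replicates 1, 2 and 3, against 6.12, 5.93 and 5.93 in empty vector replicates 1, 2 and 3. The groups did not overlap, and the lowest MYBPAR line lay far above the highest empty vector line. MYBPAR replicate 1 stood about 1 log2 unit above the other MYBPAR lines, which were nearly equal. On the linear scale the MYBPAR lines had intensities of 1209, 587 and 584 and the empty vector lines 69.6, 61.0 and 61.1.

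GSTF5 averaged 9.54 ± 0.60 over the MYBPAR lines and 5.996 ± 0.11 over the empty vector lines on the log2 scale (SD, n = 3 each), a difference of means of 3.55 (SE 0.30, 95% interval 2.83 to 4.26). The empty vector values lay below 7.08, the minimum between the low and the high mode of the feature means, where a signal may be background. With those values raised to the minimum, the difference of log2 means came to at least 5.49-fold, higher in the MYBPAR lines. This bound is on the group means, and not every MYBPAR line lay that far above the minimum. In the limma fit GSTF5 had an adjusted p of 0.134 over all features. Of the 15 alternatives only a trended and robust variance (0.0343) and the fit without MYBPAR replicate 1 (0.0108) brought it under the threshold. The next lowest was 0.0792 with array weights, and over all 15 alternatives it ran between 0.0108 and 0.999. GSTF5, which was chosen for its high values in this contrast, and GSTF6 were among the 239 features (0.644%) with a log2 difference of 1 or more.

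GSTF6, the neighbour of GSTF5 and the camalexin enzyme, had log2 values of 10.84, 11.13 and 10.95 in the MYBPAR lines, against 10.49, 9.24 and 9.97 in the empty vector lines. The groups did not overlap. The MYBPAR lines lay within 0.29 of each other, while the empty vector lines were spread over 1.26. The log2 difference was 1.07 (SE 0.31, 95% interval 0.32 to 1.83; limma, adjusted p = 0.915 over all features), so the step between the groups was smaller than the range within the empty vector lines. It was 0.74 without empty vector replicate 2 and 1.37 without empty vector replicate 1.

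GSTF7, on the other side of GSTF6, overlapped between the groups. It had 10.75, 11.37 and 11.45 in the MYBPAR lines, against 11.56, 10.32 and 10.81 in the empty vector lines. The highest of all 6 values was that of empty vector replicate 1. The log2 difference was 0.29 (SE 0.35, 95% interval -0.55 to 1.14), and it was 0.00 without empty vector replicate 2 and 0.62 without empty vector replicate 1. GSTF6 and GSTF7 are close relatives in sequence, and how far their probes tell them apart was not tested, so the values of the pair may be shared in part.

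GSTF4, on the far side of GSTF5, was nearly level in all lines. Its 3 features lay between 10.62 and 10.92 in the MYBPAR lines and between 10.51 and 10.91 in the empty vector lines. Their log2 differences were -0.01 (SE 0.11), 0.08 (SE 0.13) and 0.08 (SE 0.10), and their intervals lay between -0.29 and 0.39. The 3 features all overlapped between the groups, but the order of the lines differed. Empty vector replicate 3 had the highest of the 6 values in the first 2 features and the lowest in the last. None of the 3 held a difference near that of GSTF5.

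The genes around the cluster differed by less than GSTF5 and GSTF6. From AT1G02890 to PEX6, 14 features of 10 flanking genes were set beside the cluster, with log2 differences between -0.16 and 0.48. The highest, CUL2, a cullin gene, lay in the low mode on all 6 arrays, with 6.18, 6.43 and 5.80 in the MYBPAR lines, against 5.82, 5.96 and 5.19 in the empty vector lines. AT1G02952, a long non-coding RNA locus that RefSeq places inside GSTF4, had 7.25, 7.09 and 6.99 in the MYBPAR lines, against 6.85, 6.70 and 6.81 in the empty vector lines. These values did not overlap and lay at the edge of the low mode. They differed by 0.32 (SE 0.11, unadjusted 95% interval 0.05 to 0.60; limma, adjusted p = 0.915 over all features). RALF1, the gene of a small signalling peptide, lay slightly lower in all 3 MYBPAR lines, with a log2 difference of -0.16 (SE 0.11).

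**Figure D2:**
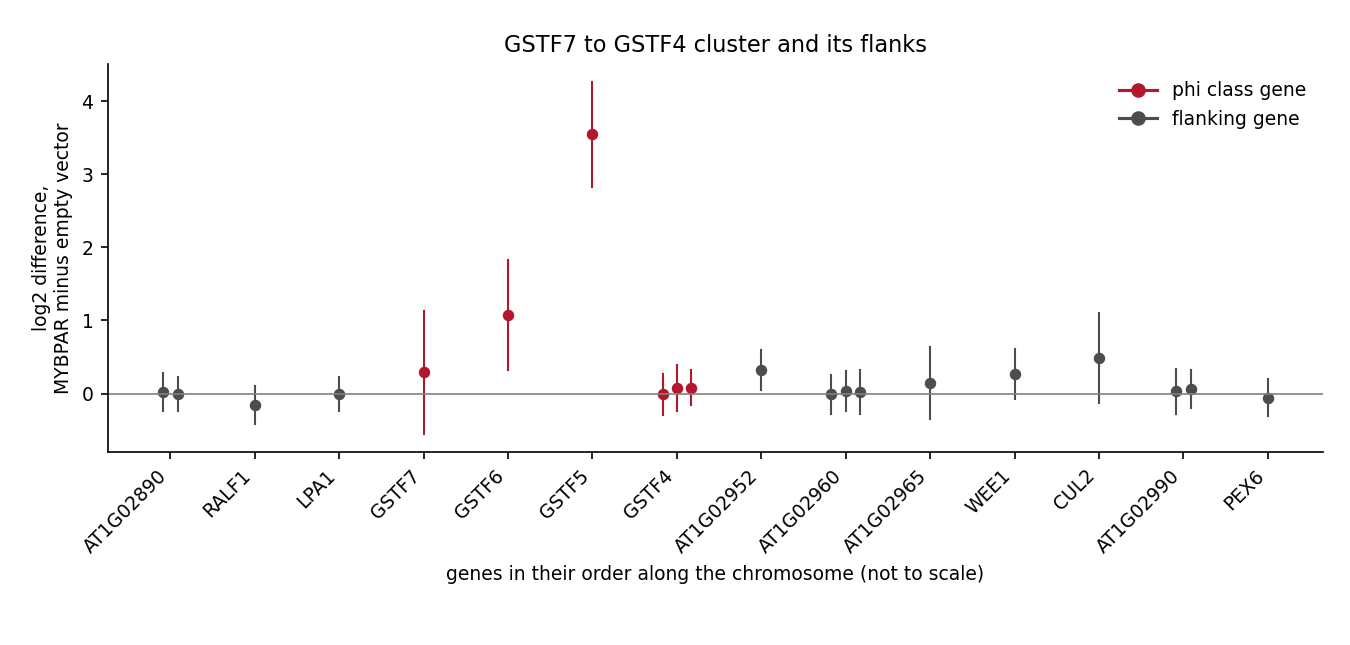
Log2 difference, MYBPAR minus empty vector, with its 95% interval (y axis) for each feature of the GSTF7 to GSTF4 cluster and its flanks, in gene order (x axis, not to scale). GSTF5 at 3.55 stands out from all others. GSTF6 follows at 1.07, and the remaining features lie between -0.16 and 0.48. The GSTF6 interval (0.32 to 1.83) overlaps those of neighbours such as GSTF7 (-0.55 to 1.14) and CUL2 (-0.14 to 1.10).

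TT19, the phi member of the flavonoid pathway, did not share the GSTF5 pattern. It had 10.46, 11.28 and 11.06 in the MYBPAR lines, against 10.79, 10.83 and 10.96 in the empty vector lines. MYBPAR replicate 1 was the lowest and MYBPAR replicate 2 the highest of all 6 lines, so the empty vector values lay inside the range of the MYBPAR values. The log2 difference was 0.07 (SE 0.22, 95% interval -0.46 to 0.60), and it was 0.31 without MYBPAR replicate 1 and -0.10 without MYBPAR replicate 2. The range within the group was 0.82 in the MYBPAR lines and 0.17 in the empty vector lines.

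The line that was lowest for TT19 was the line that was highest for GSTF5. Genes of the tannin branch were set beside GSTF5 as log2 values relative to their empty vector means. BAN, the anthocyanidin reductase gene of tannin synthesis, stood at 6.98, 5.92 and 5.72 in MYBPAR replicates 1, 2 and 3, and GSTF5 stood at 4.24, 3.20 and 3.19. In both genes the first line led the other MYBPAR lines by about 1 log2 unit. AHA10, a proton pump gene of seed coat tannin deposition, was nearly level across the MYBPAR lines at 1.48, 1.40 and 1.36. TT8, a bHLH regulator of both pigment branches, stood at 2.27, 2.42 and 1.304. Not all genes of the branch stood apart. TT12, the vacuolar transporter gene of tannin precursors, had 0.20, 0.31 and 1.04, against -0.89, 0.49 and 0.40 in the empty vector lines. Its groups overlapped, MYBPAR replicate 1 was the lowest MYBPAR line, and all its values lay in the low mode. DFR (0.16, 0.59 and 0.45) and LDOX (0.12, 0.79 and 0.49) also overlapped with their empty vector values.

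TT19 was set beside the anthocyanin and proanthocyanidin list by the likeness of profiles. The distance used here is the root mean square difference of log2 profiles over the 6 arrays, each profile centred on its own mean. Of the 12 genes of the list, 5MAT (a malonyltransferase, 0.11), UGT75C1 (a glucosyltransferase, 0.12) and UGT79B1 (a glycosyltransferase, 0.18), all of which decorate anthocyanins, were the nearest to TT19, and BAN (3.13) was the farthest. Of all features, 0.199%, 0.364% and 4.33% lay nearer to TT19 than these 3 in that order. UGT78D2, a flavonoid glucosyltransferase gene that also serves anthocyanins, lay at 0.28, with 38.8% of all features nearer. It had 12.68, 12.79 and 12.67 in the MYBPAR lines, against 12.20, 12.84 and 12.66 in the empty vector lines, so it did not share the pattern of the 3 genes. LDOX, DFR and PAP1, also on the list, lay at 0.22, 0.28 and 0.57, with 14.1%, 39.5% and 91.4% of all features nearer. PAP1 had 9.10, 8.05 and 8.81 in the MYBPAR lines, against 8.47, 8.95 and 9.10 in the empty vector lines. Within the MYBPAR group its highest value was thus that of replicate 1. UGT79B1 had 9.0006, 10.29 and 10.02 in the MYBPAR lines, against 9.61, 9.86 and 9.66 in the empty vector lines. UGT75C1 had 10.55, 11.49 and 11.17, against 11.11, 10.92 and 10.90 in the empty vector lines. In TT19, 5MAT, UGT75C1 and UGT79B1, MYBPAR replicate 1 lay below all empty vector lines and the other MYBPAR lines above all of them. This pattern was held by 2.81% of all features. These points share the same 6 arrays, and the pattern was picked after the values were seen.

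The genes with profiles nearest to GSTF5 over the 6 arrays were AT2G42860 (distance 0.77), TT8 (0.88), AT1G62333 (0.90), AT1G56100 (0.93) and AHA10 (1.12). TT8 had 9.05, 9.21 and 8.09 in the MYBPAR lines, against 6.88, 6.47 and 7.003 in the empty vector lines. AT2G42860 had 7.61, 6.84 and 5.72 in the MYBPAR lines, against 4.48, 4.51 and 4.68 in the empty vector lines. All 5 had MYBPAR values above all empty vector values, as did 6.32% of all features, with smaller steps than GSTF5. They were taken for their likeness to GSTF5, so this separation follows largely from the choice. The distance counts the size of a step, so BAN, with its step of 6.21, stood farther off at 1.33. The empty vector values of BAN, TT8, AT2G42860, AT1G62333 and AT1G56100 all lay in the low mode, as did 2 MYBPAR values each of AT2G42860 and AT1G56100 and 1 of AT1G62333, so these distances and steps rest in part on values that may be background.

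**Figure D3:**
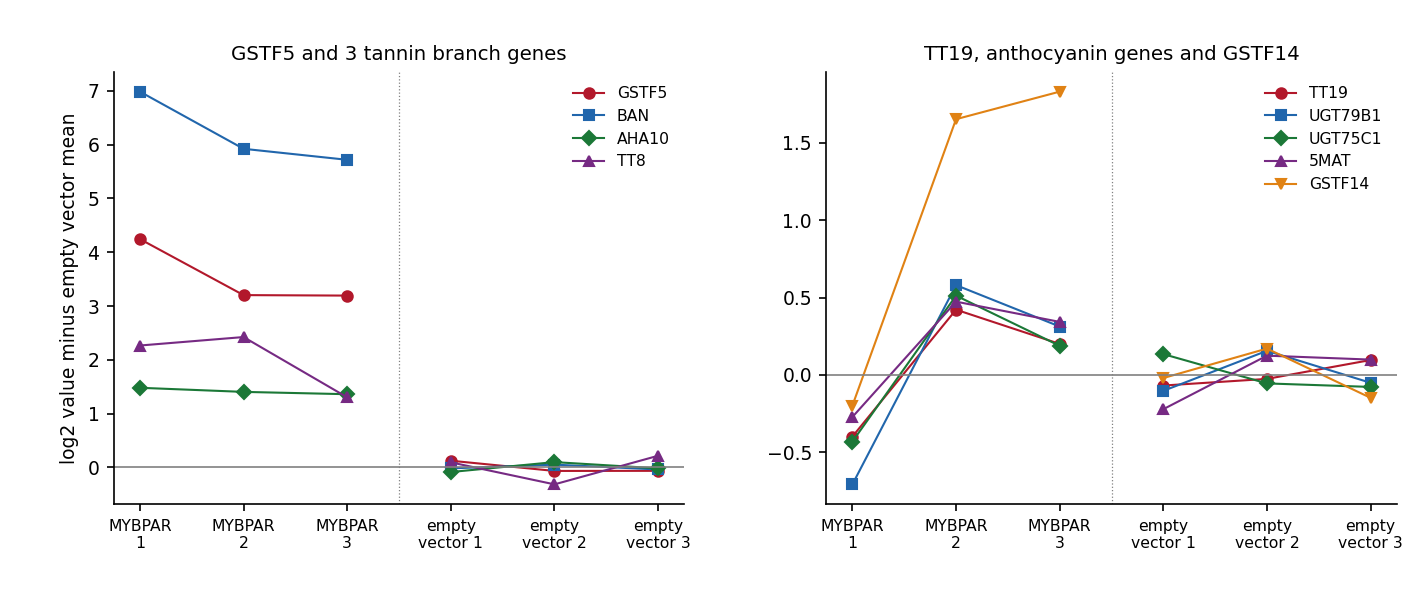
Log2 values minus the empty vector mean (y axis) in each of the 6 lines (x axis), where lines join the values of 1 gene and the order of lines within a group carries no meaning. GSTF5, BAN, AHA10 and TT8 (left) are above the empty vector lines in every MYBPAR line, while TT19, UGT79B1, UGT75C1, 5MAT and GSTF14 (right) are below 0 in MYBPAR replicate 1 and above 0 in the other MYBPAR lines. TT12, DFR and LDOX, whose groups overlapped, are not drawn.

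The stress-related members had ranges within the empty vector lines that were larger than their differences of group means. This was not particular to them, as it also held for GSTF11, TT19 and the first 2 GSTF4 features. GSTF2, a gene of an abundant plasma membrane-associated transferase, had 13.21, 13.60 and 13.38 in the MYBPAR lines, against 13.82, 12.94 and 13.41 in the empty vector lines. GSTF3, its close relative in sequence, had 10.17, 10.35 and 10.37, against 10.82, 9.61 and 10.38 in the empty vector lines. In both genes the empty vector lines held the highest and the lowest of the 6 values. The log2 differences were 0.00 (SE 0.24, 95% interval -0.58 to 0.59) for GSTF2 and 0.03 (SE 0.30, 95% interval -0.70 to 0.76) for GSTF3. Without empty vector replicate 2 they were -0.22 and -0.30, and without empty vector replicate 1 they were 0.22 and 0.30. The profiles of the pair lay 0.13 apart, and cross-hybridisation between these relatives was not tested either.

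GSTF8, a widely used reporter gene of early stress responses, had 13.90, 14.16 and 13.91 in the MYBPAR lines, against 14.24, 13.90 and 14.00 in the empty vector lines. Its groups overlapped, and the log2 difference was -0.05 (SE 0.14, 95% interval -0.39 to 0.29). It turned to 0.05 without empty vector replicate 1.

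In GSTF2, GSTF3, GSTF6, GSTF7 and GSTF8 empty vector replicate 1 was the highest and empty vector replicate 2 the lowest line of its group. That order was found in 7 of the 13 member features, GSTF5 and the first GSTF9 feature being the other two, and in 14.8% of all features. GSTF2, GSTF3, GSTF6 and GSTF7 had a range of 0.88 or more within the empty vector lines, which 11.7% of all features reached, where the median range was 0.34. The salicylate defence and camalexin list was mixed in this respect. Of its 11 genes 3 had the same order (PR1, PR2 and WRKY70), and in 4 empty vector replicate 1 was the lowest line of its group. PR1 had 9.92, 7.34 and 8.67 in the MYBPAR lines, against 9.53, 5.97 and 7.85 in the empty vector lines, and the value of empty vector replicate 2 lay in the low mode, as did that of PR2. PR5, another salicylate marker, had 9.61, 10.22 and 10.19, against 9.22, 9.26 and 9.84 in the empty vector lines. PR1 and PR5 were picked after the values were seen, and the part of these genes in the GSTF6 difference was not tested.

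**Figure D4:**
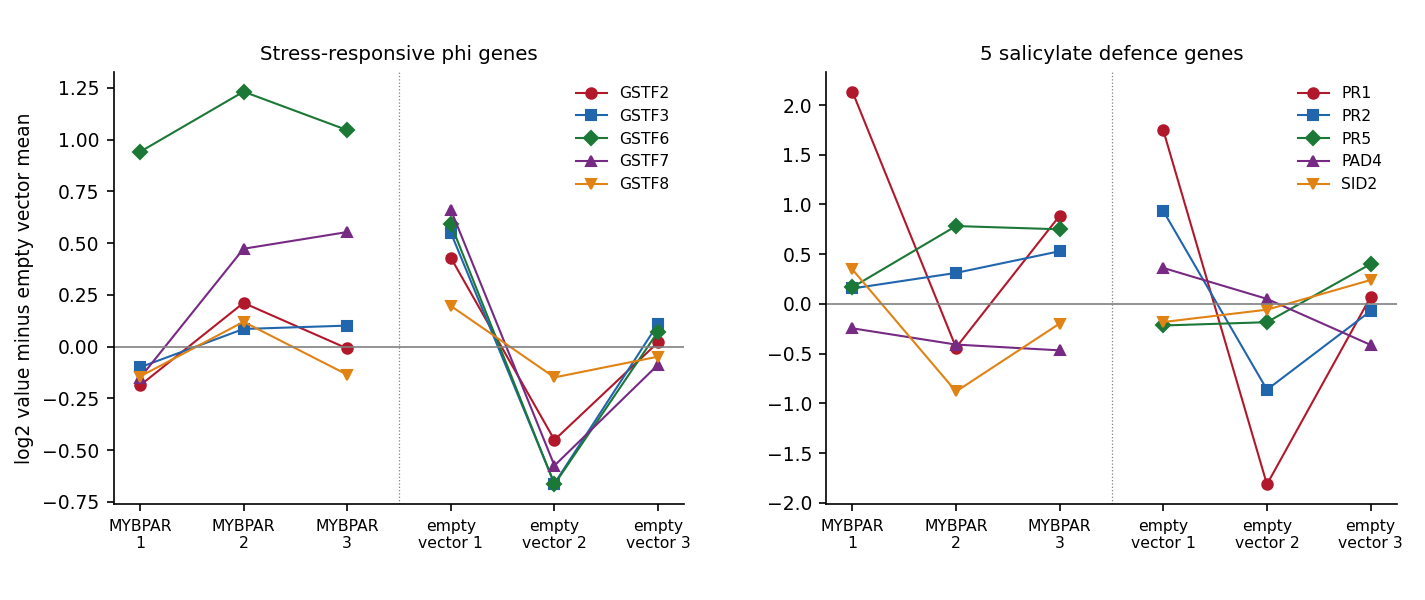
Log2 values minus the empty vector mean (y axis) in each of the 6 lines (x axis) for 5 phi genes (left) and for 5 genes of the salicylate list (right), where the order of lines within a group carries no meaning. Within the empty vector group the 5 phi genes, PR1 and PR2 are highest in replicate 1 and lowest in replicate 2, while PR5, PAD4 and SID2 are not. Of the 5 phi genes only GSTF6 is above all its empty vector values in every MYBPAR line.

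GSTF9 and GSTF11, the members linked to glucosinolates, showed small steps. GSTF11 had 9.58, 9.55 and 9.45 in the MYBPAR lines, against 8.98, 9.26 and 9.43 in the empty vector lines. The groups were separated only by the gap between 9.45 and 9.43, and the log2 difference was 0.30 (SE 0.14, 95% interval -0.04 to 0.64). It was 0.18 without empty vector replicate 1. The first GSTF9 feature had 14.78, 14.80 and 14.79, against 14.75, 14.71 and 14.75 in the empty vector lines, a log2 difference of 0.05 (SE 0.09). The second GSTF9 feature overlapped between the groups, with a log2 difference of 0.15 (SE 0.11). GSTF5, GSTF6, GSTF11 and the first GSTF9 feature were the 4 of 13 whose MYBPAR values all lay above the empty vector values, beside 6.32% of all features, and 0 of 13 lay below in all 3 lines, beside 3.67%. GSTF5 was among the 4 by the choice of the family.

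All 15 genes of the aliphatic glucosinolate list differed upwards in the group means, by a median log2 difference of 0.21, beside 0.02 over all features, and 0 passed the test. They ran between 0.03 for SUR1, a carbon-sulphur lyase gene, and 0.31 for CYP79F1, a cytochrome P450 of the first step of core synthesis. The mean of the list relative to the empty vector lines was 0.18, 0.17 and 0.25 in the MYBPAR lines, against -0.20, 0.13 and 0.07 in the empty vector lines. The lowest, empty vector replicate 1, was also lowest for GSTF11, a match picked after the values were seen. Within its group this line was lowest in the second GSTF9 feature but highest in the first. It was also lowest of its group in the means of other lists, such as floral organ identity (-0.75) and morning clock (-1.06).

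**Figure D5:**
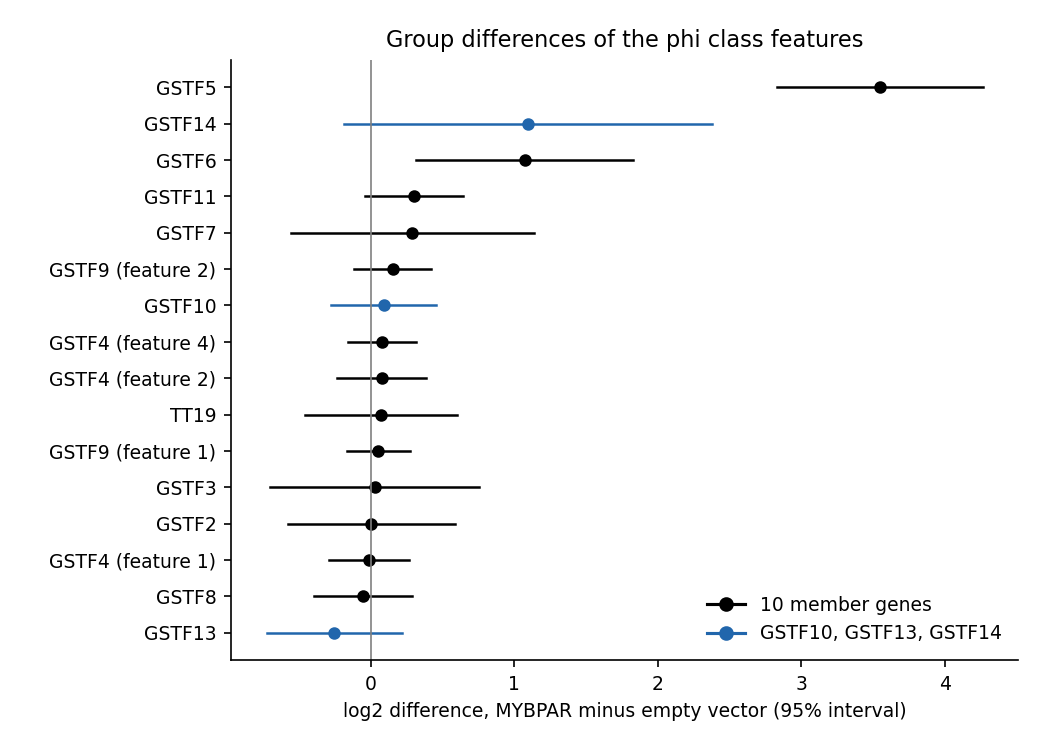
Log2 difference, MYBPAR minus empty vector, with its unadjusted 95% interval from the limma fit (x axis) for the 13 member features (black) and the 3 other phi genes (blue). The GSTF5 interval of 2.83 to 4.26 lies apart from all others, and apart from GSTF6 (0.32 to 1.83) the remaining intervals include 0.

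The arrays also held GSTF10, GSTF13 and GSTF14, phi genes that are not among the 10. GSTF14 had 10.35, 12.20 and 12.38 in the MYBPAR lines, against 10.53, 10.72 and 10.40 in the empty vector lines. MYBPAR replicates 2 and 3 were high, and MYBPAR replicate 1, the line with the highest GSTF5, was at the empty vector level. The log2 difference was 1.10 (SE 0.53, 95% interval -0.19 to 2.38). GSTF10, a dehydration-responsive neighbour of GSTF9, differed by 0.09 (SE 0.15), and GSTF13 by -0.25 (SE 0.19).

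Glutathione transferases outside the phi class lay near 0. In the tau class, the largest class in Arabidopsis, 13 of 28 genes were above 0 and 15 below, with a median of -0.03, and the extremes were GSTU25 at 0.45 (SE 0.21) and GSTU17 at -0.51 (SE 0.49). Of the 12 genes of the zeta, theta, lambda, dehydroascorbate reductase and TCHQD classes, 10 were above 0, with a median of 0.06, between -0.18 for TCHQD and 0.61 (SE 0.30) for GSTL1. None of these genes passed the limma test over all features, and of the 43 genes of the tau, other and remaining phi classes 1 had an unadjusted p under 0.05, the tau gene GSTU21 at 0.45 (SE 0.17).

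Genes that supply glutathione or handle its conjugates were level as well. Of 10 genes 5 were above 0 and 5 below, with a median of 0.00. The synthesis genes GSH1 and GSH2 differed by 0.08 (SE 0.10) and -0.02 (SE 0.14), and the vacuolar conjugate pumps ABCC1 and ABCC2 by -0.04 (SE 0.10) and -0.07 (SE 0.11). The extremes were the gamma-glutamyl transferase genes GGT1 at -0.33 (SE 0.15) and GGT2 at 0.32 (SE 0.27), and GGT2 was in the low mode on all arrays.

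Stress genes of different kinds were set beside the family. In the xenobiotic and oxidative response list 1 of 10 genes was above 0, with a median of -0.08, between -0.54 (SE 0.17) for the cytochrome P450 gene CYP81D11 and 0.32 (SE 0.20) for the glucosyltransferase gene UGT73B4. In the salicylate defence and camalexin list 8 of 11 genes were above 0, with a median of 0.33, between -0.37 (SE 0.21) for PAD4, a defence regulator, and 1.01 (SE 0.41) for CYP71A12, an early camalexin enzyme. PAD3, the last enzyme of camalexin synthesis, had 10.25, 10.69 and 10.73 in the MYBPAR lines, against 9.98, 10.13 and 9.63 in the empty vector lines, a log2 difference of 0.64 (SE 0.19). No gene of either list passed the test.

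In the anthocyanin and proanthocyanidin list 10 of 12 genes were above 0, with a median of 0.29, and 1 passed the limma test, BAN (log2 difference 6.21, SE 0.33, adjusted p = 0.0283). The empty vector values of BAN lay in the low mode. By the bound used for GSTF5, the difference of its log2 means came to at least 14.2-fold, higher in the MYBPAR lines. BAN passed in 8 of the 15 alternatives, with adjusted p-values between 0.00141 and 0.914 over all 15. It did not pass with no moderation, with the replicate block or without any 1 sample other than MYBPAR replicate 1. The lowest was PAP1, an anthocyanin regulator, at -0.19 (SE 0.30). TT12, the vacuolar transporter gene of tannin precursors, lay in the low mode on all arrays and differed by 0.52 (SE 0.42).

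Some lines differed in the RNA of organ and clock markers. The mean of 7 floral organ identity genes relative to the empty vector lines was 0.18, 0.93 and 1.04 in the MYBPAR lines, against -0.75, 0.71 and 0.04 in the empty vector lines, and all 7 differences were above 0 with 0 genes called. The mean of 3 morning clock genes was 0.47, -4.64 and -0.12, against -1.06, 0.25 and 0.80, so MYBPAR replicate 2 stood apart; their differences lay between -1.76 (CCA1) and -1.25 (LHY), and those of 4 evening genes between 0.34 (LUX) and 0.95 (ELF4). Of 7 root markers 6 were above 0, with a median of 0.25 between -0.02 (COBL9) and 1.01 (NRT2_1), and 4 of 6 leaf photosynthesis genes were below 0, with a median of -0.04 between -1.14 (CAB2) and 0.09 (RBCS1A). None of these genes passed the test. Without MYBPAR replicate 2 the GSTF5 difference was 3.72. The part of organ makeup or harvest time in the values of TT19 and GSTF14 was not tested, and in whole plants fewer cells of a type and less RNA per cell cannot be told apart.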

How the data were processed

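Each sample file deposited by the authors gives a linear intensity for every feature, made with RMA per the submitters' processing notes. Its version, the probe annotation and the genome build are not stated there, so no coordinates are printed. RMA sets the quantiles of the probe values of all arrays equal, which would hide a shift shared by most transcripts. The feature values were close but not equal in this respect, with array medians between 859 and 887. The log2 values deposited for the whole series were the same numbers to within 1.66e-06. Gene names and neighbours came from RefSeq (TAIR10.1), where all 10 genes matched.

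Log2 intensities were fitted by lmFit and eBayes (limma 3.58.1, R 4.3.3; no filter, no covariate), MYBPAR minus empty vector, over all 37118 features, with Benjamini-Hochberg adjustment. The fit was tested on simulated data with independent normal noise of the fitted variances. Shifts shared by many genes of a line were not part of that simulation. With 3 lines a group an exact permutation test cannot reach the threshold, and the number of arrays limits precision. By their names all arrays lay on 1 slide. The labels call the samples separate cultures, each of its own line, so line, culture and array effects cannot be told apart.

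Lists used the feature with the highest mean of a locus. A gene at the edge of the cluster's flanks is not reported here. All member features were named, and from each list the extremes, the called genes and, after values were seen, a few others. For likeness the 5 loci with the smallest distance to GSTF5 were taken. Members, lists and rules were chosen with earlier results of these data known. The alternatives were another quantile normalization, median centring, the series table, other variance models, a filter on the dimmest 25%, log2(value + 32), array weights, the replicate block and leaving out each sample.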

Additional observations from a re-analysis of the deposited data

How the results depend on the processing

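The GSTF5 difference of 3.55 ran between 3.20 and 3.72 when 1 sample was left out, and it was 3.02 with log2(value + 32), which by construction shrinks the step of a feature whose controls are dim. Over the fits that each omit 1 sample, TT19 ran between -0.10 and 0.31 and the median of the 13 features between 0.05 and 0.13. The count of features called higher over the whole array was 2. It was 0 with no moderation and 0 with the replicate block, and between 0 and 3 when 1 sample was left out, with 0 in each such fit other than the one without MYBPAR replicate 1. It was 3 with a trended and robust variance, where GSTF5 was among the 3. No alternative called a feature lower. Why the count changed with the variance model was not tested.

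The replicate numbers do not pair the samples. Deviations of same-numbered samples from their group means had correlations across the brighter features of -0.14, -0.21 and 0.14, so the replicate block only shares a number, and with it the GSTF5 adjusted p was 0.263 (limma). Of 165 values of the other 11 features under the 15 alternatives, all moved by less than the spread between replicates, and 9 turned sign, in GSTF2, GSTF3, GSTF8 and the first GSTF4 feature, all with differences near 0.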

Other observations

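The tau class gene GSTU17 was low in the lines where the morning clock genes were low. It had log2 values of 13.07, 11.62 and 12.71 in the MYBPAR lines, against 12.17, 13.18 and 13.57 in the empty vector lines. Its lowest values were those of MYBPAR replicate 2 and empty vector replicate 1, the lines with the lowest mean of the morning clock genes, at -4.64 and -1.06 relative to the empty vector mean. Its highest value was that of empty vector replicate 3, where that mean was also highest at 0.80. This gene was singled out after its values were seen.

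The profile nearest to GSTF6 over the 6 arrays was that of AT1G29100, at a distance of 0.10, followed by AT2G45135 at 0.18 and HP6 at 0.21. AT1G29100 had 6.18, 6.48 and 6.44 in the MYBPAR lines, against 5.76, 4.75 and 5.50 in the empty vector lines. All 3 genes lay in the low mode on every array, where a signal may be background.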
